A study of Talaromyces verruculosus with 6 samples.

Results

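The genes described here were lower in mycelia of Talaromyces verruculosus grown with pectin than in mycelia grown without it, and were not set apart by a high control 1. They were picked by level, as RPKM (reads scaled to coding length and to the size of the library, deposited by the authors). A gene had to average at least 5 RPKM in controls, to average at most 0.4 times that level with pectin, to have every pectin library below every control library, and to be less than 1.5 times as high in control 1 as in the higher of controls 2 and 3. Of 11326 annotated genes, 145 met all 4 conditions.

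Talaromyces verruculosus is a filamentous ascomycete, and the strain was TS63-9 in all libraries. The 3 control cultures grew in basic medium, and the 3 pectin cultures in the same medium with pectin at 5 g/L, each started from plugs of an agar culture and harvested after 24 h. Poly-A selected RNA was sequenced, with 10320372 to 11393959 reads on exons per library. The labels give no batches, and the composition of the basic medium is not given in the sources used here.

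Pectin is a plant cell wall polysaccharide rich in galacturonic acid. Filamentous fungi release its sugars with secreted enzymes, and adjust the set of enzymes, transporters and metabolic genes they express to the carbon source at hand, turning some genes up and others down. In fungal genomes genes of a common pathway often lie side by side, and neighbours that point away from each other share the stretch of DNA between their starts. The files pair the locus tags with no gene names or products, so no role is given to any gene here. At most 2 tags are used, and other genes are given by their place on the contigs named in the files.

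Of the 11326 genes, 6795 averaged at least 5 RPKM in controls. Among these, 1641 had every pectin library below every control, or 24.2%, and 352 of the 1641 were also at or below 0.4 times the control mean. The last condition left out 207 of the 352, those with a high control 1, and kept 145. All values of pectin against control below were used in this choice and describe the genes without testing them. In RNA from whole mycelia, fewer expressing cells and less transcript per cell cannot be told apart, and RPKM is a share of a library and not an amount per cell.

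Both the number of genes and their identity moved with single libraries. Without control 1, where the last condition falls away, the rule found 248 genes, of which 124 were among the 145. Without control 2 it found 132, of which 102 were among the 145, the fewest kept of the 6 omissions. There the last condition held control 1 against control 3 alone, which is stricter. Of the 145 genes, 36 had control 1 at least 1.5 times control 3 and were lost by that change of condition. Without control 3, where control 1 was held against control 2 alone, it found 140 and kept 120 of the 145. Of the pectin libraries, leaving out pectin 1 gave 139 genes with 125 of the 145, pectin 2 gave 149 with 132, and pectin 3 gave 237 with 140. With RPKM rescaled by TMM factors, which correct for the make-up of each library, the rule found 157 genes, of which 112 were among the 145.

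Values on both sides of the ratio limit were close. Just inside it, a gene on LHCL01000013 from 340885 to 341585 had 98.7, 75.9 and 64.7 RPKM in the controls and 31.5, 36.7 and 27.4 with pectin, in library order 1 to 3 as in all such triplets here, a ratio of mean pectin to mean control of 0.3994. The other, on LHCL01000100 from 18858 to 22104, had 13.2, 6.57 and 10.1 RPKM in controls and 3.48, 3.15 and 5.29 with pectin, a ratio of 0.3991. Just outside, at a ratio of 0.40004, a gene on LHCL01000050 from 222595 to 223624 had 109, 117 and 136 RPKM in controls and 39.0, 46.8 and 59.3 with pectin. The next, at 0.4002 on LHCL01000027 from 274448 to 278970, had 36.7, 24.5 and 16.2 RPKM in controls and 12.5, 11.3 and 7.22 with pectin. The limit thus falls within a continuous series of genes and marks no gap.

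As a group the 145 genes took 2.13%, 1.95% and 1.89% of exon reads in the controls and 0.427%, 0.513% and 0.561% in the pectin libraries. The controls averaged 1.99 ± 0.127%, and pectin libraries 0.501 ± 0.0678% (SD, n = 3 each). The rule limits control 1 in each gene, so nothing is read from the closeness of the controls. The 207 genes left out for a high control 1 took 3.77%, 1.70% and 1.35% in the controls, an order that their choice fixes. Summed RPKM of the 145 averaged 10139 ± 854 over controls and 2604 ± 264 over pectin libraries (SD, n = 3 each).

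**Figure D1:**
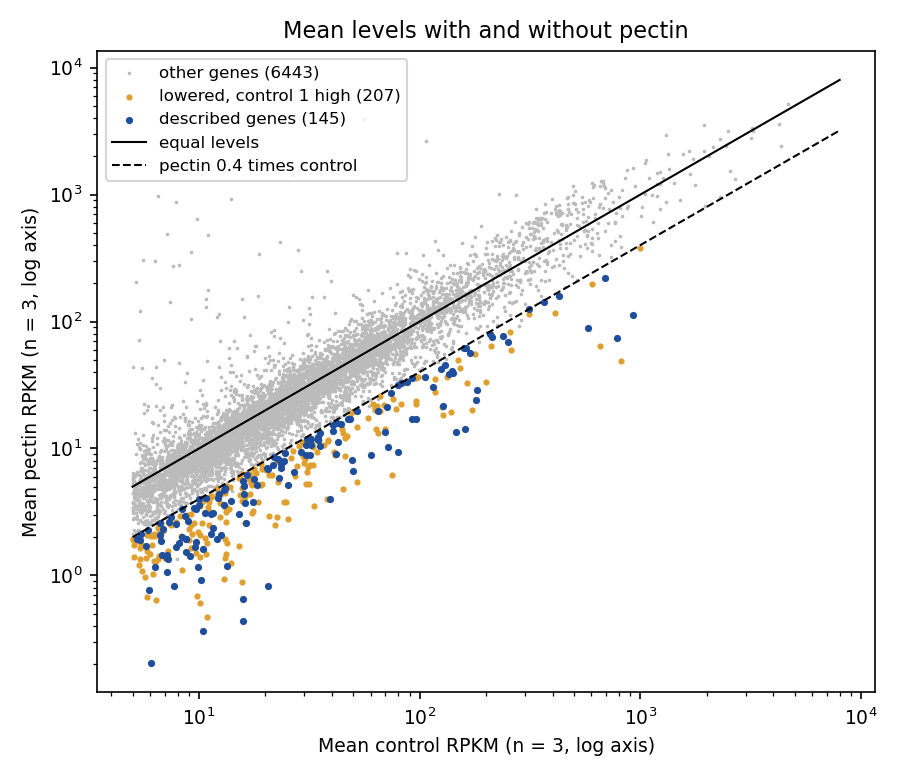
Mean RPKM of the 3 pectin libraries against mean RPKM of the 3 control libraries on log axes, for the 6795 genes with at least 5 RPKM in controls. Blue points are the 145 described genes, orange points the 207 genes that met the other conditions but had a high control 1, and grey points all others; the solid line marks equal levels and the dashed line 0.4 times the control.

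Levels ran over a wide range. Mean control RPKM went from 5.21 to 922, with a median of 21.7 beside 25.2 over all 6795 genes above the floor. There were 37 genes under 10 RPKM in control, 68 from 10 to under 50, 14 from 50 to under 100 and 26 at 100 or more. The median fall was 4.21-fold in the lowest class and 3.25-fold, 3.33-fold and 3.29-fold in the others. Fold falls ran from 2.504 to 36.2 over the 145, with a median of 3.39. By ratio, 10 genes kept at most 0.1 of their control level, 30 kept over 0.1 and up to 0.2, 36 over 0.2 and up to 0.3, and 69 over 0.3. The median ratio was 0.295, beside 0.912 over all genes above the floor.

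The highest control level was that of ZTR_03362, a minus-strand gene of 3 exons on LHCL01000022 from 238867 to 240778. Its RPKM was 1109, 844 and 814 in the controls and 64.2, 104 and 168 with pectin. The controls lay close together, while pectin 3 was 2.62 times as high as pectin 1 and still 4.85 times below the lowest control. In the edgeR fit its log2 fold change came to −2.90 (standard error 0.35).

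The next in level was a short gene of 459 coding bases in 2 exons, on LHCL01000046 from 192562 to 193069. It had 1175, 804 and 383 RPKM in controls and 82.4, 55.0 and 84.1 with pectin. Its controls spread over 3.07-fold, with control 1 highest, and the pectin libraries lay together far below. In this gene 62.4% of all its reads fell outside the annotated exons, so its RPKM rests on the smaller part of its reads. The third, on LHCL01000112 from 12573 to 13908, had 920, 460 and 696 RPKM in controls and 187, 293 and 181 with pectin, and its lowest control was only 1.57 times its highest pectin library.

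The fourth was the most even of all 145 across controls. This gene of 414 coding bases in 3 exons, on LHCL01000114 from 36125 to 36664, had 569, 571 and 596 RPKM in controls and 81.4, 106 and 79.0 with pectin. Its highest control was 1.05 times its lowest, and the fall to a ratio of 0.153 was far larger than the spread in either group. The fifth, the shortest of the 145 with 276 coding bases on LHCL01000009 from 171976 to 172331, had 344, 399 and 545 RPKM in controls and 145, 158 and 173 with pectin. The 10 genes highest in control held 39.0 ± 3.21% of the exon reads of all 145 over controls and 36.4 ± 2.41% over pectin libraries (SD, n = 3 each). The rule requires a fall in every gene, so nothing is read from the closeness of these shares.

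The 5 largest falls were in genes with control means of 6.04 to 20.6 RPKM. ZTR_01270, a minus-strand gene of 2 exons and 1785 coding bases on LHCL01000002 from 700872 to 702721, kept the smallest part of its control level. It had 11.5, 13.97 and 21.95 RPKM in controls and 0.49, 0.48 and 0.34 with pectin, a 36.2-fold fall. Its lowest control was 23.4 times its highest pectin library, the widest distance among the 145. In the edgeR fit its log2 fold change came to −5.03 (standard error 0.38). The gene with the next lowest ratio lies 805 bp away on the same strand, from 703527 to 705300. That gene had 8.04, 4.53 and 5.54 RPKM in controls and 0.14, 0.14 and 0.33 with pectin, a 29.7-fold fall.

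The third largest fall was in a gene of 5 exons on LHCL01000056 from 175592 to 177506, with 15.4, 11.03 and 4.68 RPKM in controls and 0.41, 0.21 and 0.47 with pectin. Places 4 and 5 were taken by another pair of neighbours, on LHCL01000027. The gene from 330617 to 332182 had 2.49, 18.2 and 41.1 RPKM in controls and 0.74, 0.93 and 0.79 with pectin. Its neighbour from 328167 to 329897 had 2.47, 13.2 and 31.8 RPKM in controls and 0.67, 0.84 and 0.46 with pectin. Both genes have 1 exon, and both were lowest in control 1 and highest in control 3. Their fold falls of 25.1 and 24.1 therefore rest mostly on controls 2 and 3, with control 1 only 2.68 and 2.94 times the highest pectin library. In 6 of the 145 genes every pectin library was under 1 RPKM.

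**Figure D2:**
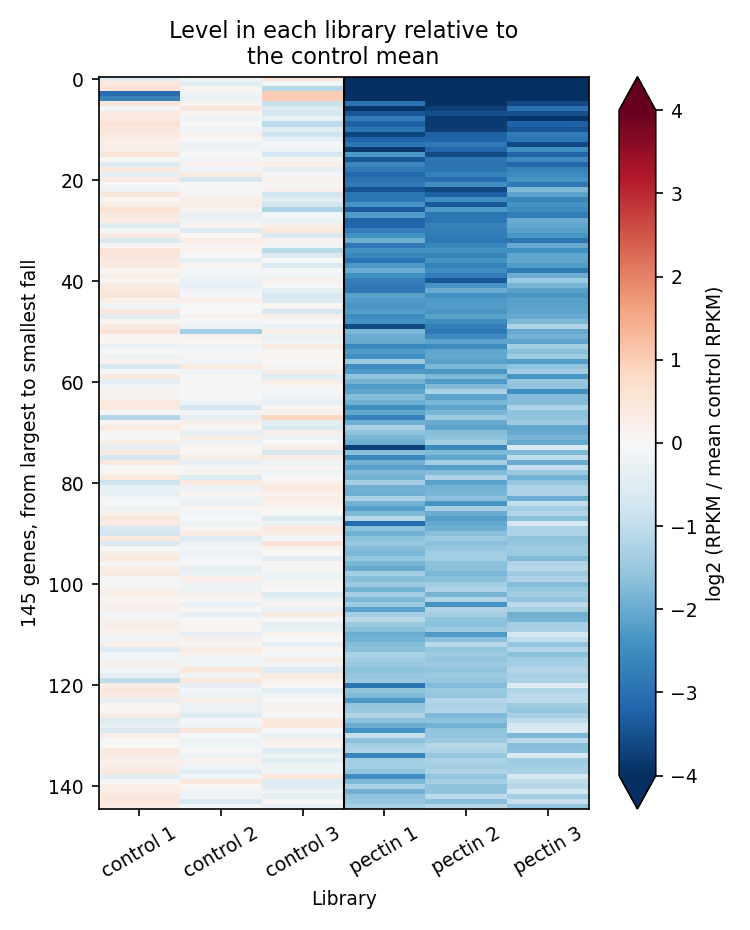
Level of each of the 145 genes in each library, as log2 of RPKM over the gene's mean control RPKM, with genes ordered from the largest to the smallest fall and colours saturating beyond 4 in either direction. The control columns are pale in most genes, dark blue marks the low control 1 of the neighbours on LHCL01000027 near the top, and pectin 3 is paler than pectin 1 in many genes.

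The genes were not all even across the controls. The rule bars a control 1 from 1.5 times the higher of controls 2 and 3 upward. It bars no smaller excess of control 1, no low control 1 and no high control 2 or 3. The highest control was a median of 1.58 times the lowest, beside 1.46 over all genes above the floor and 2.67 in the 207 genes with a high control 1. Under 1.5-fold spread was found in 61 of the 145 genes and under 2-fold in 118. The other 27 spread by at least 2-fold, 7 by at least 3-fold and 2, the neighbours on LHCL01000027, by at least 5-fold. Among the 27, control 1 was the highest control in 16, control 2 in 6 and control 3 in 5. Control 1 was the highest control in 76 genes, control 2 in 26 and control 3 in 43. Controls 1, 2 and 3 were lowest in 37, 50 and 58 genes.

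After that pair, the widest control spread was in a gene on LHCL01000037 from 145923 to 147301, with 59.6, 107 and 240 RPKM in controls and 21.0, 49.3 and 44.8 with pectin. Its lowest control was 1.21 times its highest pectin library. At the other end, a gene on LHCL01000042 from 101725 to 103773 had 6.50, 6.46 and 6.94 RPKM in controls and 1.5, 1.43 and 3.35 with pectin. A gene on LHCL01000078 from 110746 to 111911 had 23.3, 21.95 and 23.7 RPKM in controls and 4.82, 5.48 and 7.21 with pectin. In both, the controls were nearly equal and pectin 3 was the highest pectin library.

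**Figure D3:**
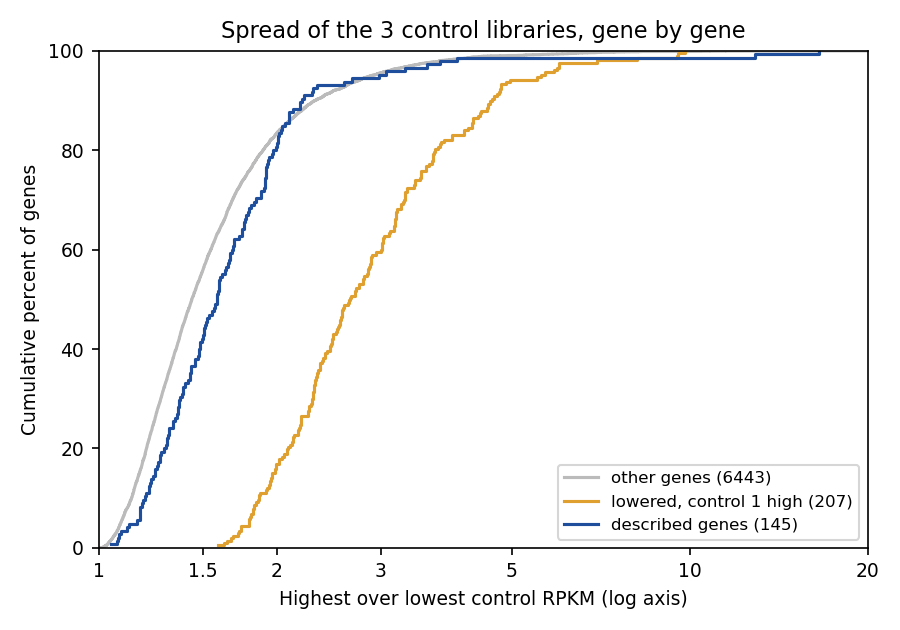
Cumulative percent of genes by the ratio of the highest to the lowest control RPKM, on a log axis. The 145 described genes (blue) run close to the 6443 other genes above the floor (grey), with medians of 1.58 for the 145 and 1.46 for all genes above the floor, and the 207 genes with a high control 1 (orange) lie to the right by the way they were set apart.

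The pectin libraries also differed among themselves, and pectin 3 was mostly the highest. It was the highest pectin library in 82 genes, pectin 1 in 32 and pectin 2 in 31. The median gene had 0.254 of its control mean in pectin 1, 0.255 in pectin 2 and 0.314 in pectin 3. Over all genes above the floor these medians were 0.868, 0.904 and 0.943, in the same order. Pectin 1 was below pectin 3 in 67.6% of the 145 genes and in 51.7% of the genes above the floor. A spread of at least 2-fold among pectin libraries was found in 35 genes, and pectin 3 was the highest in 26 of these. The median coefficient of variation was 23.7% in controls and 24.8% with pectin, beside 19.7% and 15.3% for genes above the floor.

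The widest pectin spread, of 8.62-fold, was in a gene on LHCL01000017 from 363566 to 364466. It had 17.99, 24.96 and 27.7 RPKM in controls and 1.78, 3.92 and 15.3 with pectin. A gene on LHCL01000010 from 443405 to 444916 had 15.4, 10.8 and 10.5 RPKM in controls and 1.42, 2.95 and 7.75 with pectin. In both, pectin 3 came near the controls while pectin 1 was far below. The narrowest distance between groups was in a gene on LHCL01000007 from 40797 to 42373, with 109, 221 and 155 RPKM in controls and 30.2, 53.5 and 103 with pectin, where control 1 was 1.07 times pectin 3. Over the 145 genes the lowest control was a median of 2.21 times the highest pectin library, and at least 2 times in 86 genes. Both groups spread by under 1.5-fold in 25 genes, whose median fall was 2.87-fold.

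All 145 genes passed the filter on low counts in edgeR's quasi-likelihood test of exon reads, and 134 of them were called lower with pectin at a Benjamini-Hochberg adjusted p under 0.05, each by at least 2-fold. Over all 9177 genes tested, 7.00% were called lower and 5.49% at least 2-fold lower. The rule used the same libraries, so nothing is read from this difference. The log2 fold changes of the 145 ran from −5.03 to −1.16 with a median of −1.62. Without pectin 2, 89 of the 145 were called. The count of all genes called lower, 642, was 328 without control 2, 307 without pectin 1, 190 without pectin 2 and 419 without pectin 3.

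In 9 of the 11 genes not called the pectin libraries spread by at least 2-fold. The highest pectin library was a median of 3.40 times the lowest in the 11, beside 1.58 in the 134 genes called, while the medians of the control spread were both 1.58. Pectin 3 was the highest pectin library in 10 of the 11. The most abundant of them, on LHCL01000036 from 192242 to 194165, had 271, 340 and 490 RPKM in controls and 66.1, 126 and 237 with pectin. Its pectin 3 level nearly reached its control 1 level.

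Some of the genes were neighbours. Of the 145, 22 lay directly beside another of the set, in 4 runs of 3 consecutive annotated genes and 5 pairs, and 123 did not. Members were found on 70 of 286 contigs that hold genes, with 8 on LHCL01000005 among its 394 genes, 7 on LHCL01000001 among 519 and 5 on LHCL01000042 among only 72. Of the 207 genes with a high control 1, 55 lay beside another of those 207, and their longest run had 7 genes. The number of neighbours moves with the limits of the rule, at 10 genes with a ratio limit of 0.3, 51 with 0.5 and 37 with a floor of 2 RPKM.

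Among the 4 runs of 3, the fold fall of summed RPKM was largest in the genes on LHCL01000017 from 384703 to 392525. Their summed RPKM was 260, 265 and 238 in the controls and 51.3, 28.2 and 26.4 with pectin, a 7.21-fold fall of the means. Most of it came from the outer genes. The first, from 384703 to 385773, had 186, 132 and 119 RPKM in controls and 20.9, 10.2 and 9.66 with pectin, and the last, from 390912 to 392525, had 62.7, 118 and 107 and then 25.1, 13.3 and 12.6. The middle gene was lower throughout, at 11.9, 14.6 and 12.4 RPKM in controls and 5.31, 4.71 and 4.14 with pectin, and fell by 2.74-fold. Pectin 1 was the highest pectin library in each of these 3 genes, unlike most of the set. The gene after the run went from 7.72 to 4.92 RPKM on average.

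On LHCL01000039, 3 genes from 133185 to 137852 each had 2 exons, and their summed RPKM was 376, 354 and 454 in controls and 145, 110 and 94.2 with pectin. The first 2 start back to back with 455 bp between them. Fold falls in order along the contig were 4.61, 3.76 and 3.10, so the fall was larger where the level was lower. The annotated genes on either side kept 0.788 and 0.949 of their control levels, and the change thus stopped at the ends of this run. On LHCL01000053, 3 genes from 62269 to 73685 had a summed 244, 216 and 278 RPKM in controls and 93.0, 102 and 72.7 with pectin. Their fold falls were close together at 2.84, 2.87 and 2.60, with control 3 highest and pectin 3 lowest in every gene of the run. The genes flanking this run were below 5 RPKM in control and kept 0.535 and 0.541 of it.

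The run on LHCL01000042, from 187662 to 206124, belongs to a longer stretch. Its 3 genes had a summed 253, 206 and 208 RPKM in controls and 63.1, 50.1 and 64.6 with pectin, and their fold falls were 2.60, 6.15 and 3.61. The gene before it, from 181477 to 182653, had 217, 68.1 and 94.2 RPKM in controls and 22.1, 17.6 and 23.8 with pectin. That gene fell as well and was left out for its high control 1. The next gene out, from 179649 to 180161, was again among the 145, with 12.5, 3.31 and 10.3 RPKM in controls and 2.49, 1.21 and 2.11 with pectin. Of these 5 consecutive genes 4 met the rule. Outside them the gene before the stretch had 129, 268 and 279 RPKM in controls and 325, 281 and 341 with pectin, and was thus not lower. On the other side the gene from 206782 to 208160 had 9.01, 3.45 and 4.02 RPKM in controls and 3.16, 3.63 and 1.1 with pectin, and kept 0.479 of its control mean with groups that overlapped.

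Among the runs and pairs, the largest fold falls were in the pairs on LHCL01000002 and LHCL01000027. On LHCL01000002 the pair that includes ZTR_01270 had a summed 19.5, 18.5 and 27.5 RPKM in controls and 0.63, 0.62 and 0.67 with pectin. The gene after it, from 706391 to 711517, had 6.71, 2.56 and 3.83 RPKM in controls and 0.05, 0.06 and 0.05 with pectin. It kept 0.0122 of its control level, less than either of the pair. Its control mean of 4.37 RPKM is under the floor of 5, and its control 1 was over 1.5 times the higher of controls 2 and 3, so it failed both conditions. The pair on LHCL01000027 starts back to back with 719 bp between, and its summed RPKM went from 36.4 ± 34.2 over controls to 1.48 ± 0.266 over pectin libraries (SD, n = 3 each). The order of the controls was the same in both genes of that pair.

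The other pairs fell less. On LHCL01000026, 2 genes from 10900 to 15560 had a summed 146, 100 and 65.9 RPKM in controls and 16.3, 17.0 and 23.7 with pectin, with control 1 highest in both. On LHCL01000005 a pair from 882091 to 884148 points at each other with 164 bp between, and its genes were unlike in level. The first had 7.57, 6.78 and 7.13 RPKM in controls and 1.82, 1.29 and 1.00 with pectin, and the second had 237, 201 and 202 and then 98.4, 69.9 and 58.7. In both, pectin 1 was highest and pectin 3 lowest. On LHCL01000064 a pair from 72430 to 78110 fell from a mean of 180 ± 50.8 to 70.2 ± 16.4 summed RPKM (SD, n = 3 each).

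**Figure D4:**
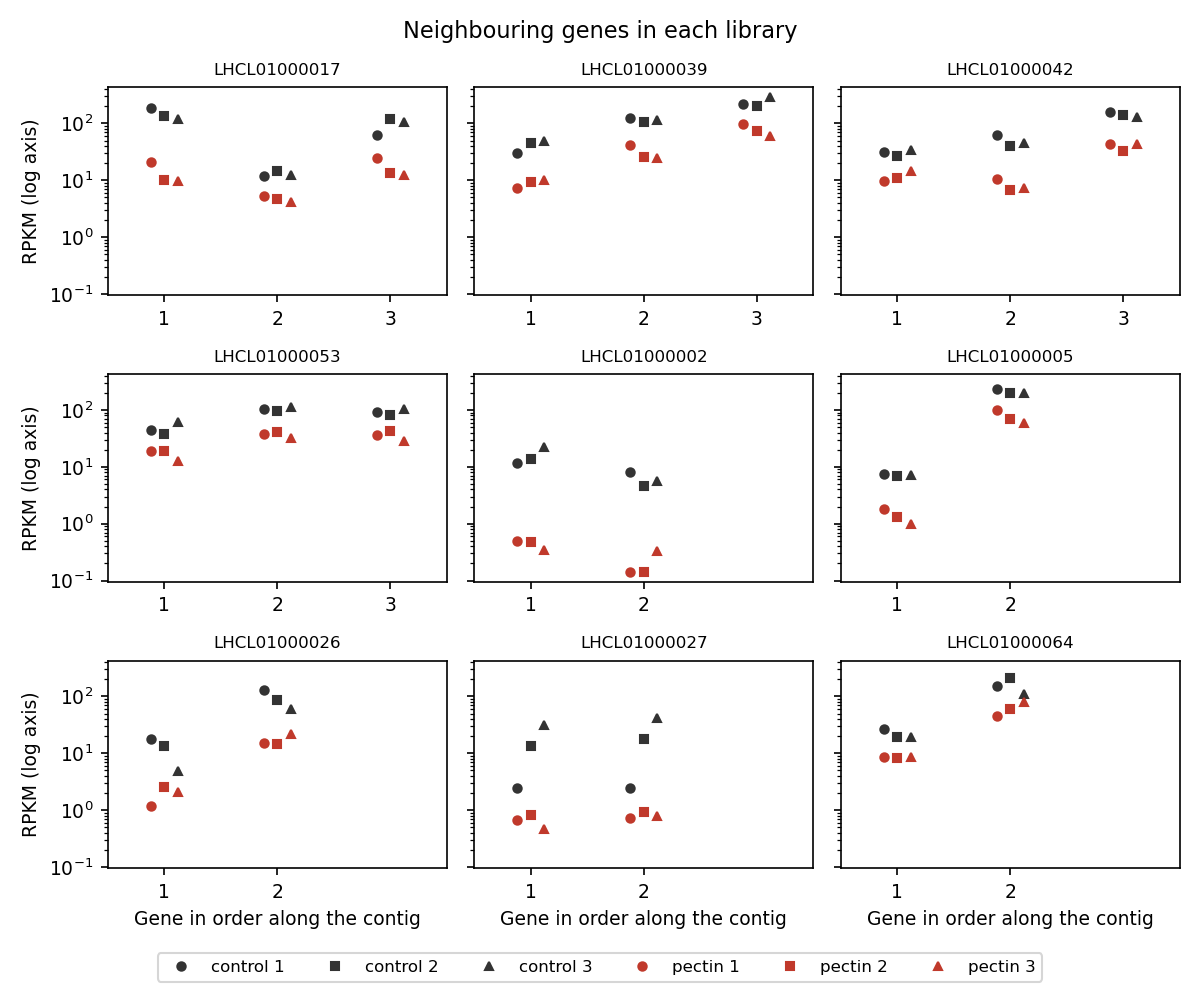
RPKM on a log axis of each gene in the 4 runs of 3 and the 5 pairs of neighbouring genes, titled by contig, in order along it. Black symbols are control libraries and red symbols pectin libraries, with circles, squares and triangles for libraries 1, 2 and 3; red lies below black in every gene, by the rule, and the pairs on LHCL01000002 and LHCL01000027 show the widest distances on average.

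The runs and pairs hold 13 adjacent couples, of which 5 point away from each other, 2 point at each other and 6 point the same way. Over all 11040 adjacent couples of annotated genes, 28.7% point away from each other, beside 38.5% of the 13. The stretches between genes that point away from each other were 455 to 3544 bp long, with a median of 719 bp beside 985 bp over all such couples. With 13 couples these shares say little. Annotated genes directly beside one of the 145, and not among them, numbered 252, of which 156 were above the floor. Their median ratio of pectin to control was 0.800, beside 0.919 in the 6494 other genes above the floor, and 31 of them (19.9%) kept at most 0.5 of their control level, beside 6.98% of the others. This compares genes by position, which the rule did not use, but adjacent genes are not independent and no test was made.

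Gene structure was not used by the rule. Median coding length was 1398 bp, beside 1362 bp for genes above the floor and 1284 bp for all annotated genes. The median exon number was 2, beside 3 in both of those sets, with 40 genes of 2 exons (27.6%, beside 22.6% above the floor) and 35 of a single exon (24.1%, beside 20.1%). Coding lengths ran from 276 to 4920 bp. The longest gene, on LHCL01000093 from 20623 to 25651 with 3 exons, had 33.4, 50.5 and 42.3 RPKM in controls and 8.53, 18.5 and 20.3 with pectin. Up to 11 exons were found. A gene with 11 exons on LHCL01000008 from 312298 to 317536 had 96.5, 64.6 and 54.9 RPKM in controls and 10.2, 9.48 and 11.3 with pectin.

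The median fall was 3.04-fold in genes with 1 exon, 4.13-fold in the 40 genes with 2, 3.55-fold in the 42 with 3 or 4, and 3.11-fold in the 28 with 5 or more. By class of coding length, the median control RPKM was highest in the 13 genes of at most 600 coding bases, at 82.2, beside 18.1 in the 26 genes over 2000 bp. All exon reads of the 145 genes were uniquely mapped, so none of the counted reads was listed as shared with another place.

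Reads outside annotated exons are separate reads listed for the same genes in the same libraries, and describe the same contrast. Whether they all come from these genes cannot be told. Each of the 145 genes had at least 60 of them in all. Scaled to the library total behind the RPKM, they were lower with pectin in 145 of 145 genes, and in 140 every pectin library was below every control. Of all 6725 genes above the floor with as many such reads, 80.4% were lower with pectin and 35.6% had every pectin library below every control. Nothing is read from these differences because the genes were chosen on these libraries. The median log2 change was −1.92 outside exons and −1.76 for RPKM. Over all genes above the floor the medians were −0.41 and −0.13, so reads outside exons were lower with pectin over whole libraries too. In 43 of the 145 genes the fall outside exons was smaller than that in exons, beside 778 of the 6725. The rule chose genes by their fall in exons, so nothing is read from this either.

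The share of reads outside exons summed over the 145 genes was 21.6%, 23.3% and 19.5% in the controls and 20.3%, 18.5% and 16.7% with pectin. Over all genes it averaged 17.7 ± 1.85% over controls and 15.1 ± 0.841% over pectin libraries (SD, n = 3 each), so the 145 lay above the whole libraries in both groups. With pectin the share was lower in 66.9% of the 145 genes, beside 88.5% of genes above the floor. Exon reads are part of this share and the genes were chosen for few of them with pectin, so nothing is read from that difference. In members with several exons, reads across exon junctions made up 39.97 ± 0.999% of exon reads over controls and 38.97 ± 0.998% over pectin libraries, beside 38.9 ± 0.563% and 40.6 ± 1.17% over all genes with several exons (SD, n = 3 each). The small difference within the set was no larger than the spread between libraries.

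**Figure D5:**
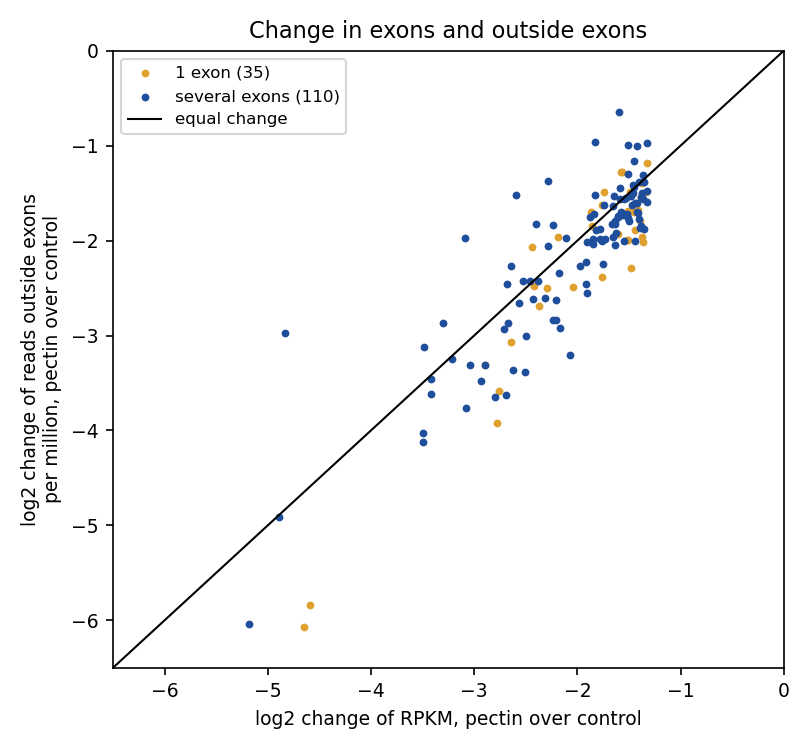
Log2 change of reads outside exons, scaled to the library total, against log2 change of RPKM, pectin over control, for the 145 genes, with 35 genes of 1 exon in orange and 110 of several exons in blue. All points lie below 0 on both axes, by the rule for RPKM, and most lie below the line of equal change.

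In 9 of the 145 genes most reads lay outside the annotated exons. The highest share, 95.8%, was in the gene on LHCL01000042 from 179649 to 180161, described above. The next, 87.3%, was in a gene with a single exon of 297 bases on LHCL01000073 from 42695 to 42991, which had 99.6, 87.3 and 59.8 RPKM in controls and 33.9, 26.9 and 37.1 with pectin. Over 50% of reads lay outside exons in 6.21% of the 145 genes and in 4.19% of the genes above the floor. The annotated genes hold no untranslated regions, and whether counting used strand is not given, so reads of a neighbour or of the other strand cannot be told apart from reads of these genes.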

How the data were processed

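Actively growing mycelia gave 3 control and 3 pectin libraries, called biological replicates in the design text. Per the file headers, the deposited files hold read counts per gene for exons, exon junctions and introns, in total and unique, and RPKM made by the authors. No source used here gives the aligner, the counter, its use of strand or the build. Deposited RPKM matches exon counts over coding length and over totals of 16155986 to 18049399 per library, computed from the values; these exceed the exon totals. Intron counts are also listed for genes with 1 exon and are called reads outside exons. With 3 libraries a group the smallest exact permutation p is 0.1.

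The fit on total exon counts used edgeR 4.0.16 under R 4.3.3 (quasi-likelihood, robust, TMM, filterByExpr, Benjamini-Hochberg over all genes, threshold 0.05), checked on simulated data. Alternatives used limma 3.58.1 and DESeq2 1.42.0; other steps Python 3.11.15 and pandas 2.3.3. Chi-square per degree of freedom between libraries of a group was 32.4 to 129.7, so none was a copy of another. Tags were named by rule, as the highest control mean and the lowest ratio; genes given by position were chosen after their values were seen. The members and lists were chosen with earlier results of these data known. Gene lists, promoter motifs and sequences were not used here.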

Additional observations from a re-analysis of the deposited data

How the results depend on the processing

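The 145 genes became 248 with TPM recomputed from the deposited RPKM, 76 and 274 with ratio limits of 0.3 and 0.5, 237 with a control 1 limit of 2 times, and 237 without control 1 and pectin 1 together, an alternative chosen after seeing the data like the rescaling by TMM. Leaving out 1 library gave 132 to 248. The 22 neighbouring genes became 55 with recomputed TPM, 42 with TMM-scaled reads per kb, 10 and 51 with ratio limits of 0.3 and 0.5, and 37 with a floor of 2 RPKM. Median coding length was 1298 to 1418 bp and median exon number 2 to 3 over 7 alternatives. Against 642 lower and 844 higher genes among all tested, DESeq2's Wald test gave 965 lower, library size only 545 higher and a filter of 10 CPM 556 higher, and leaving out 1 library gave 190 to 707 lower and 325 to 929 higher. Members called lower numbered 89 to 135 without 1 library and 123 to 145 under the other alternatives, with 132 members tested under the 10 CPM filter. Their median log2 fold change was −1.82 with library size only, which moved the median of all genes to −0.21 from −0.0061, and −1.78 to −1.58 without 1 library. ZTR_03362 and ZTR_01270 stayed within −3.28 to −2.57 and −5.38 to −4.70. The cause of these differences was not tested.

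Labels share replicate numbers but do not call them pairs, and the deviations from the group means had correlations of 0.478, 0.0732 and 0.432 for libraries 1, 2 and 3, which does not settle pairing. The replicate block gave 1060 lower and 1163 higher genes and called 140 of the 145. The members' lowest exon read count was 21 to 35 per control library and 4 to 9 per pectin library, so the lowest pectin levels rest on few reads.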
